A study of Mus musculus with 3 samples.

Results

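Follicular B cells of the spleen of control mice were selected on their own transcripts in 1 single-cell RNA library. The library was filtered to barcodes with at least 500 unique molecular identifiers (UMIs, each standing for 1 captured RNA molecule), at least 200 genes and under 10% of UMIs from mitochondrial genes. A barcode was counted as a B cell with at least 2 UMIs of Cd79a and Cd79b together and none of Cd3d, Cd3e or Cd3g. It was counted as follicular with at least 1 UMI of Fcer2a, at least 1 of Ighd, and none of Cd93 or Jchain. The rule found 2308 follicular B cells, which were 61.9% of the 3729 B cells of the library (exact Clopper-Pearson 95% interval 60.3 to 63.5) and 25.4% of its 9070 filtered barcodes. The series held 35739 barcodes in all.

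The series compared wild-type mice without irradiation (control), mice given 8.5 Gy and a "colvent control" (IR), and mice given 8.5 Gy and HSO, which the title gives as hemp seed oil (IR_HSO). Each group was 1 library of ground spleen on the 10x Genomics platform, with 9520, 13509 and 12710 barcodes. The labels give no age, no number of mice per library, and no time, route or dose of HSO. With 1 library per group there was no replicate check and no test, and all intervals below are 95% intervals that cover counting error only.  The libraries shared 34 to 54 barcodes in pairs.

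Follicular B cells are the recirculating majority of mature B cells. They enter the spleen from the blood, settle in B cell follicles along gradients of the chemokine CXCL13, and wait at rest for antigen and for help from T cells. Their surface carries both IgM and IgD, which are spliced from the same primary transcript, and CD23, the low-affinity receptor for IgE that Fcer2a encodes. Marginal zone B cells, the other mature spleen subset, lie next to the blood sinus and carry much CD21 and CD1d and little CD23 or IgD. Newly formed transitional B cells still carry CD93, and antibody-secreting cells carry the joining chain that Jchain encodes.

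The cells held the B cell markers of their list, including those the rule did not read. Fcmr (ENSMUSG00000042474), the receptor for IgM on resting B cells, had a UMI in 92.2% of the follicular cells. Ms4a1 (ENSMUSG00000024673), which encodes CD20, had a UMI in 95.6% of them. In the 2410 T cells of the same library (at least 2 Cd3 UMIs, none of Cd79a or Cd79b), which should lack both genes, the shares were 5.23% and 5.64%. The T cells were deeper, with a median of 5217 UMIs against 3673 in the follicular cells, so the order of the shares went against the order of depth. Each cell was then thinned to 1000 UMIs, which left out 2 follicular and 11 T cells. Fcmr was then seen in 59.6% of follicular and 1.08% of T cells, and Ms4a1 in 67.0% and 1.04%. Both genes set the cells apart from T cells, and far less from the 1421 other B cells of the library. Those held Fcmr in 82.9% and Ms4a1 in 90.8% without thinning, and in 52.9% and 67.5% when thinned.

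The other 3 markers chose the cells, so their values are a description. Fcer2a (ENSMUSG00000005540) averaged 2.86 UMIs per follicular cell (SD 2.02, median 2, highest 14), and 709 cells, or 30.7%, qualified with a single UMI. Ighd (ENSMUSG00000104213), the heavy chain of IgD, averaged 5.68 UMIs (SD 3.40, median 5, highest 29), and 152 cells, or 6.59%, had a single UMI. Cd79a (ENSMUSG00000003379), a signalling chain of the B cell receptor, had a UMI in 99.8% of the cells. T cells, which should lack both genes, held an Ighd UMI in 10.1% and an Fcer2a UMI in 3.40%, and the source of these UMIs was not tested. Among the 1421 other B cells, 977 had no Fcer2a UMI, 287 had no Ighd UMI, 169 had a Cd93 UMI and 412 had a Jchain UMI, with overlaps among these.

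**Figure D1:**
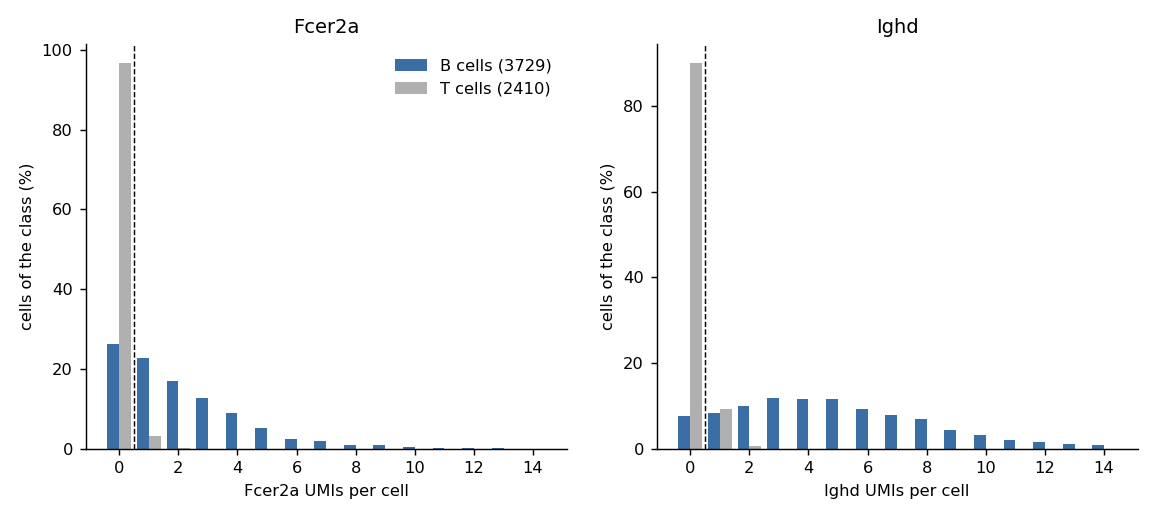
UMIs per cell of Fcer2a (left) and Ighd (right), as percent of the 3729 B cells (blue) and of the 2410 T cells (grey) of the control library, up to 14 UMIs, with the dashed line at the threshold of the rule. The B cells show no gap at the Fcer2a threshold, with 26.2% at 0 UMIs and 22.7% at 1, while 96.6% of T cells are at 0.

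The Jchain condition barred many cells on a single UMI. Of the 412 B cells with Jchain, 339 had exactly 1 UMI, or 9.09% of B cells, and T cells held any Jchain UMI in 11.6%, at their greater depth. With 1 Jchain UMI allowed, 2550 cells or 68.4% of B cells met the rule. Against the 412 cells with Jchain, 879 of 8245 genes (10.7%) were at least 1.5-fold higher in follicular cells and 644 (7.81%) at least 1.5-fold lower. These counts rest on summed UMIs, in which deep cells weigh most. Of the 412 cells, 39 had 20 or more Jchain UMIs, and depth ran up to 59997 UMIs at a median of 3927.5. The counts therefore do not describe the cells with 1 Jchain UMI.

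Markers of other cell types were low in the follicular cells. Summed over a list, they came to 11.5 CPM (UMIs of a gene per 1000000 UMIs of the class) for the 4 plasma cell markers besides Jchain, 14.3 for the 5 neutrophil markers, 28.6 for the 7 monocyte and macrophage markers, 53.2 for the 6 T cell markers besides Cd3 and 133 for the 5 NK cell markers. The same sums in the other B cells were 111, 114, 375, 95.3 and 281 CPM. The 6 erythroid markers were at 1174 CPM against 1777. The 5 stroma markers (Col1a1, Col1a2, Dcn, Cxcl12, Pdgfrb) were at 0 in all follicular cells. At least 2 markers of T, NK, plasma, myeloid or dendritic cells, or 100 or more haemoglobin UMIs, were found in 80 follicular and 152 other B cells.

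Those few cells weighed heavily on the comparison with the other B cells. Of 8269 genes with at least 10 CPM in either class, 119 (1.44%) were at least 1.5-fold higher in follicular cells and 512 (6.19%) at least 1.5-fold lower, leaving out immunoglobulin genes and the genes of the rule. Without the 80 and 152 cells, 23 of 8113 genes (0.283%) were higher and 208 (2.56%) lower, and 18 of the 119 and 166 of the 512 were among them. All 119 kept their direction there, and 472 of the 512 did. Taking the mean of per-cell CPM in place of summed UMIs, which keeps deep cells from dominating, gave 27 higher and 226 lower. Below, a level is a CPM over the summed UMIs of a class, a log2 ratio has 1 CPM added to both sides, and values without the cells that hold markers of other types are called strict.

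**Figure D2:**
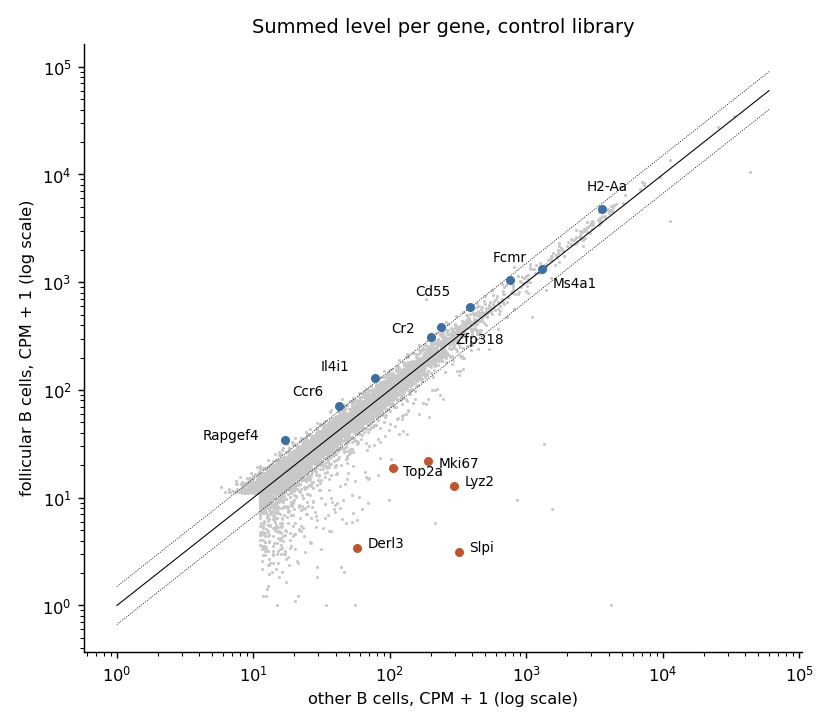
Summed level of each gene in follicular (vertical) against other B cells (horizontal) of the control library, as CPM + 1 on log scales, with the line of equal levels and dotted lines at 1.5-fold, and named genes in blue (higher in follicular cells) and red (lower). Of the genes in blue, Ms4a1 lies near the line of equal levels, the others lie near or above the upper dotted line, and Rapgef4 is furthest above it at 2.06-fold, while Slpi, Lyz2, Derl3, Mki67 and Top2a lie far below the lower one.

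The differences toward higher levels were small. By the largest ratios among genes with at least 20 CPM, the list was headed by Rapgef4, an exchange factor for the small GTPase Rap1, at 33.3 CPM in follicular and 16.2 in other B cells, a 2.06-fold difference (1.65 to 2.58) that was 1.60-fold (1.28 to 2.005) in the strict comparison. Mapk11, a p38 kinase, Irgc1, Slamf1, a costimulatory receptor of lymphocytes, and Setbp1 followed with log2 ratios of 0.82, 0.80, 0.78 and 0.76. Then came Acsf2 (0.76), Rflnb (0.73), Pxdc1 (0.73), Ccr6 (0.73), Il4i1 (0.72) and Rara (0.72). Of these 11, Rapgef4, Setbp1 and Rara, the retinoic acid receptor alpha, were still past 1.5-fold in the strict comparison, with log2 ratios of 0.65, 0.60 and 0.68, and the others lay between 0.38 and 0.56.

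Homing genes went both ways, with receptors for chemokines and oxysterols on the higher side. Of 17 homing and adhesion genes with enough counts, 3 were at least 1.5-fold higher (Ccr6, Gpr183, Cxcr5) and 3 lower (Itgb1, Selplg, Cd44), with a median log2 ratio of 0.18 against 0.03 over all genes. In the strict comparison the median was 0.03 against -0.03.

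Ccr6, the receptor for CCL20, stood at 69.3 against 41.4 CPM, and Gpr183, which guides B cells by oxysterols to the outer follicle, at 208 against 135. Cxcr5, the receptor for the follicular chemokine CXCL13, stood at 97.0 against 63.2 CPM. The strict folds were 1.36 for Ccr6 (1.18 to 1.58), 1.34 for Gpr183 (1.23 to 1.45) and 1.23 for Cxcr5 (1.09 to 1.39), so none of the 17 genes was past 1.5-fold there in either direction. Ccr7, which draws cells to the T cell zone, had a log2 ratio of 0.53, or 0.22 in the strict comparison. The 3 lower genes, an integrin chain, a selectin ligand and CD44, are shared with activated and myeloid cells, and the strict log2 ratios were -0.44 for Itgb1, -0.24 for Cd44 and 0.03 for Selplg.

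Promoter windows were read for the genes that headed the ratios and for the named markers, and 19 of 27 genes matched an entry. Each window was the 250 bases before an annotated start, from RefSeq on GRCm38.p6. They were searched on both strands for the octamer ATTTGCAT, which OCT factors of B cells bind, and for the core that early B cell factor (EBF) binds, TCCC and GGGA with any 2 bases between them. The octamer was in 1 of the 19 genes and in 1.60% of all 32851 promoters of that length. The EBF core was also in 1 of the 19 and in 0.779% of all promoters. A gene counted if any of its windows matched, and some genes have several, while the percents are over single promoters, so the units differ. The windows with a match are shown because they belong to Ccr6 and Il4i1, with the match in capitals. For Ccr6 it is the first of 2 annotated starts, chr17:8235793-8236042 on the plus strand, and the match runs from 68 to 61 bases before the start. For Il4i1 it is chr7:44836038-44836287 on the plus strand, and the match runs from 61 to 52 bases before the start.
Ccr6: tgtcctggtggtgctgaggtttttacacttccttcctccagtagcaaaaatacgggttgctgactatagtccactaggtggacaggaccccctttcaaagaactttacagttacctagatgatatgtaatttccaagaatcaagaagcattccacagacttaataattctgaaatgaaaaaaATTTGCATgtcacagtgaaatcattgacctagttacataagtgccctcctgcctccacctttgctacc
Il4i1: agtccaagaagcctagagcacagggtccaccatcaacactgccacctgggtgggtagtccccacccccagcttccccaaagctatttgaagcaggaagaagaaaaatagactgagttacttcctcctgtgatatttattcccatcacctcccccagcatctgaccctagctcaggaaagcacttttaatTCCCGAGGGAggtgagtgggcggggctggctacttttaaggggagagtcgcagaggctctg
A match of letters describes the window only, and nothing in these data measured binding.

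Il4i1 encodes a secreted amino acid oxidase that interleukin 4 induces in B cells. Its level was 128 CPM in follicular and 77.0 in other B cells. It was higher at higher Fcer2a counts, going from 66.9 CPM in B cells with Ighd and no Fcer2a UMI to 106 at 1 Fcer2a UMI, 119 at 2 to 3 and 159 at 4 or more, where the median depths were 3500.5, 3529, 3648 and 3932 UMIs. Thinned to 1000 UMIs, 9.50% of follicular cells had an Il4i1 UMI, against 6.86% of other B cells and 0.459% of T cells. Apoe, a lipid carrier, went the other way over the same 4 steps, from 274 to 251, 214 and 151 CPM.

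Antigen presentation genes were higher together, each by a small amount. All 13 genes of the MHC class II list had ratios above 0, none was past 1.5-fold, and the median log2 ratio was 0.43, or 0.25 in the strict comparison, where again all 13 were above 0. H2-Aa, a chain of the class II molecule I-A, stood at 4774 CPM in follicular and 3554 in other B cells, and 1.19-fold higher (1.17 to 1.21) in the strict comparison. Ciita, the master regulator of class II genes, had a log2 ratio of 0.49 and Cd74, the invariant chain, 0.29. Marchf1, a ubiquitin ligase that takes class II off the surface, had the highest ratio of the list at 0.55. The median over all genes in the strict comparison was -0.03.

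Receptors for T cell help showed the same order of size. Of 10 genes, Icosl was past 1.5-fold and none was lower, and 9 of 10 lay above 0 with a median of 0.42. Icosl, the ligand for ICOS on helper T cells, stood at 152 CPM against 98.3, and Il21r, the receptor for interleukin 21, at 155 against 103. Il2rg, the common cytokine receptor chain, had a log2 ratio of 0.49, Il4ra 0.46 and Cd40 0.40. In the strict comparison the median was 0.16 and none of the 10 was past 1.5-fold, with Icosl at 1.29-fold (1.18 to 1.43).

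The machinery of the B cell receptor differed little. Bank1, a scaffold for receptor signalling, was the only one of 16 signalling genes past 1.5-fold, at 841 against 555 CPM, and its strict fold was 1.22 (1.17 to 1.27). Lyn, Syk, Btk and Blnk, the kinases and adaptor that carry the first steps of the signal, had log2 ratios of 0.07, 0.16, 0.37 and 0.06. All 16 genes lay above 0, with a median of 0.16, while the strict median was 0.02, with 8 above 0 and 8 below.

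Coreceptors went both ways. Cr2, which encodes CD21 and CD35 and binds complement, stood at 310 CPM (2917 UMIs) against 200.4, and Cd55, which protects cells from complement, at 594 against 384. Both had log2 ratios of 0.63, and the strict folds were 1.24 (1.17 to 1.33) and 1.25 (1.19 to 1.31). Cd9 and Ifitm3 were lower at log2 -1.22 and -2.32, and were past 1.5-fold in the strict comparison too, at -0.88 and -1.04. Ms4a1 did not set the cells apart: its level was 1311 CPM against 1295, and in the strict comparison it was 1.22-fold lower in follicular cells (1.18 to 1.25).

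Inhibitory receptors gave no common direction. Cd22 and Btla were at 0.49 and 0.47, while Lair1 and Cd300a, at -2.04 and -2.10, were the 2 of 12 past 1.5-fold and both had under 6 CPM in follicular cells. Fcrl5 had a log2 ratio of -0.66 at 5.31 CPM, under the 10 CPM needed in either class, and was the only one of 11 past 1.5-fold in the strict comparison, at -0.76. Survival genes had a median of 0.08, or -0.05 in the strict comparison. Tnfrsf13c, the BAFF receptor, was at 0.20 and Mcl1 at -0.01, while Bcl2 had the highest ratio of the list at 0.45, with 157 against 115 CPM. Tnfrsf17, which plasma cells use, was the only one of 13 past 1.5-fold, at 0.106 CPM in follicular and 19.3 in other B cells. Toll-like receptors and partners gave 1 of 8 past 1.5-fold, Ly96, at -0.74, with Cd180 and Ly86 at 0.17 and 0.22. Their median was 0.03 with 4 of 8 genes above 0, and -0.13 with 2 of 8 in the strict comparison. With per-cell means it was -0.12 with 2 of 8 above 0, and with cells thinned to 2000 UMIs -0.20 with 1 of 8.

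Transcription factors of B cell identity were shared with the other B cells. Of 24 factors, none was 1.5-fold higher and Id2 and Zeb2 were lower, and the median of 0.25 became 0.00 in the strict comparison. Pax5, Ebf1 and Pou2f2 were at 0.37, 0.29 and 0.27, and at 0.06, -0.01 and 0.03 in the strict comparison. Mef2c, a factor of B cell proliferation and survival, was at 0.46 and 0.27. Zeb2 stood at 132 CPM in follicular and 205 in other B cells and was 1.55-fold lower (1.43 to 1.70) in the strict comparison. Id2, an inhibitor of E proteins, was 3.38-fold lower there (2.40 to 4.82). Of 11 quiescence genes, Klf2 and Btg1 among them, none was past 1.5-fold, and the median was 0.24, or 0.04 in the strict comparison.

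**Figure D3:**
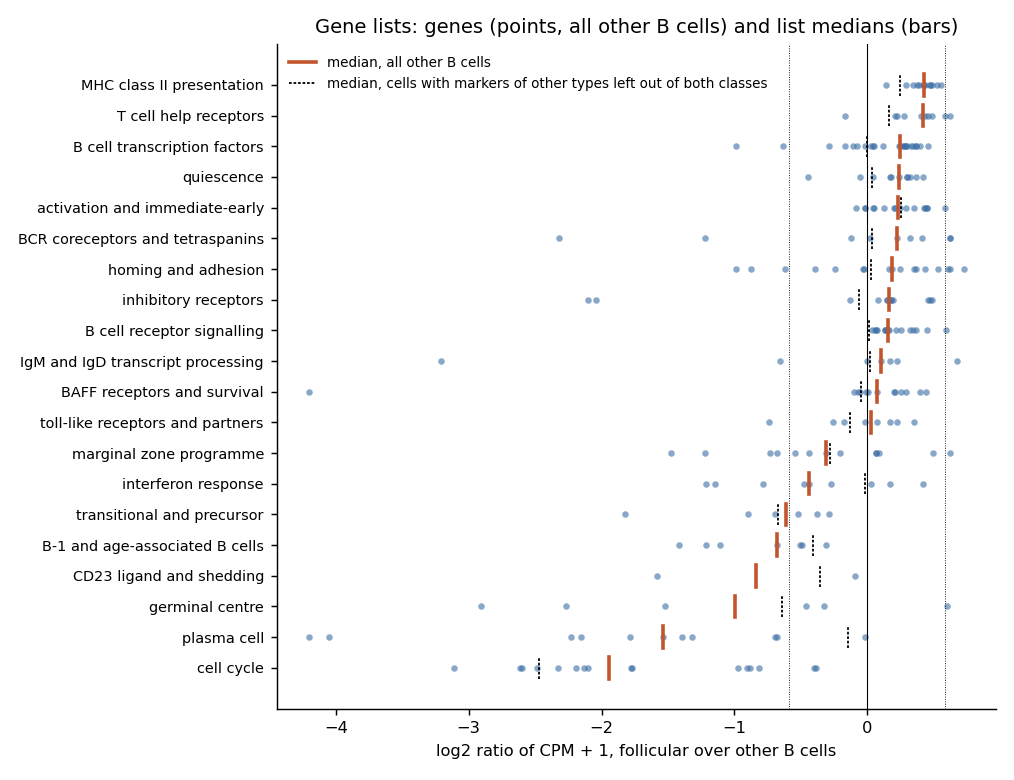
Log2 ratio of CPM + 1 of follicular over other B cells for the measured genes of 20 lists (points), with the list median over all other B cells (red bar) and with the cells that hold markers of other types left out of both classes (black dashed bar). The medians of the MHC class II list are 0.43 and 0.25, those of the cell cycle list -1.94 and -2.47, and that of the plasma cell list moves from -1.54 to -0.15.

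The lists of other B cell states had medians below 0, and the size for proliferation depended on how the cells were weighted. All 16 cell cycle genes were below 0 and 14 were past 1.5-fold, with a median of -1.94, or -2.47 in the strict comparison. With per-cell means the median was -0.61 and 6 of 12 genes were past 1.5-fold lower, and with cells thinned to 2000 UMIs it was -0.44 and 5 of 11. In those 2 readings the transitional list lay lower, at -0.62 and -0.76. Mki67, which marks dividing cells, stood at 20.9 CPM in follicular and 188 in other B cells, and in the strict comparison at 4.63 and 88.0 CPM, or 19.0-fold lower (13.8 to 26.8). A Mki67 UMI was found in 0.434% of thinned follicular cells (0.208 to 0.796), 2.55% of other B cells (1.79 to 3.51) and 0.875% of T cells (0.543 to 1.33). Top2a was 6.72-fold lower (5.23 to 8.74) and Cenpf 31.4-fold lower (17.1 to 63.8) in the strict comparison, and 12 of 15 cell cycle genes were past 1.5-fold lower.

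Plasma cell genes were lower, by a size that depended on which cells were counted and how they were weighted. Of 11 genes without Jchain, 10 were past 1.5-fold lower with a median of -1.54, Derl3, a component of protein export from the endoplasmic reticulum, at 2.44 against 56.0 CPM and Xbp1 at 55.1 against 193. In the strict comparison 6 genes had enough counts, none was past 1.5-fold and the median was -0.15. The strict comparison leaves out cells by plasma cell markers, and the rule itself bars Jchain, so both choices bear on the list's position. With per-cell means the median was -0.62 and 4 of 8 genes were past 1.5-fold lower. With cells thinned to 2000 UMIs it was -0.47 and 4 of 9. Slpi, Lyz2 and Prg2 had the lowest ratios beside this list. Slpi, a protease inhibitor, was at 2.12 against 319 CPM and 8.42-fold lower (4.47 to 17.2) in the strict comparison. Lyz2, the lysozyme of myeloid cells, was at 11.9 against 293 CPM and at 6.44 against 6.50 in the strict comparison. Lyz2 is itself among the markers by which that comparison leaves out cells, so its strict levels follow in part from the filter. Prg2, an eosinophil granule protein, had no UMI in the follicular cells, which makes it at least 171-fold lower against a floor of 3 UMIs over the class.

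Germinal centre genes were mixed. Bcl6, the repressor that germinal centre cells need, was the only one of 6 measured genes that was 1.5-fold higher, at 62.6 against 40.9 CPM, and 1.36-fold higher (1.17 to 1.59) in the strict comparison. Mef2b, Rgs13 and Basp1 were lower at -2.27, -1.52 and -2.91. Rgs13, which dampens chemokine receptor signalling, was 3.73-fold lower (2.57 to 5.49) and Basp1 10.7-fold lower (6.72 to 17.9) in the strict comparison.

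Genes of B-1 and age-associated cells lay below 0 in all 7 measured cases. Bhlhe41, a factor of B-1 cells, Spn, Itgax and Apoe were past 1.5-fold lower. In the strict comparison Bhlhe41 was 2.88-fold lower (2.13 to 3.91), while Spn was at log2 -0.41 and Apoe at -0.24. Interferon response genes, of which Isg20, Rsad2 and Bst2 were lower among 9 measured, had a median of -0.44 and of -0.01 in the strict comparison. Transitional and precursor genes were all below 0, with Sox4, Myb and Akap12 past 1.5-fold. Myb was 3.35-fold lower (2.61 to 4.30) and Akap12 2.11-fold lower (1.78 to 2.504) in the strict comparison, where Cd24a, a sialoglycoprotein lost on maturation, was 1.61-fold lower (1.52 to 1.71) at 246 against 396 CPM.

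The marginal zone list had Cr2 on the higher side and Cd9, Asb2, Mzb1 and Plac8 on the lower side of 13 measured genes, with a median of -0.31, or -0.28 in the strict comparison. Plac8 stood at 371 CPM against 618 and was 1.53-fold lower (1.46 to 1.61) in the strict comparison. Over all other B cells, Dtx1 and Notch2, a target and the receptor of the signal that makes marginal zone cells, had log2 ratios of 0.06 and 0.50. Of the list, 5 of 13 genes lay above 0 there, and 2 of 11 in the strict comparison. Mzb1 was 0.02 in the strict comparison, and it is also on the plasma cell list. In that comparison Cd9, Plac8, Cd36 and Marcks were the lower genes.

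The nearest neighbours of the follicular cells were 672 B cells with Ighd, without Cd93 and Jchain, and with no Fcer2a UMI. They were slightly shallower, with a median of 3500.5 UMIs, and at these depths a zero does not show that the transcript is absent. Against them 97 of 8127 genes (1.19%) were at least 1.5-fold higher in follicular cells and 205 (2.52%) lower, with a median over all genes of -0.02. Bcl6 was 1.69-fold higher (1.36 to 2.12) and Rara 1.93-fold higher (1.46 to 2.60), and Il4i1 1.91-fold higher (1.63 to 2.25). Cr2 was 1.27-fold (1.16 to 1.38) and Zfp318 1.26-fold (1.17 to 1.37) higher. The MHC class II list had all 13 genes above 0 here too, with a median of 0.17.

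The genes lower in follicular cells than in these neighbours belonged to several lists. Plac8 was 1.75-fold lower (1.65 to 1.85), and 5 of 12 marginal zone genes were past 1.5-fold lower. Myb was 2.64-fold lower (1.97 to 3.52), Akap12 2.12-fold (1.72 to 2.60), Bhlhe41 2.20-fold (1.49 to 3.20) and Zeb2 1.52-fold (1.37 to 1.68). The comparison with the neighbours kept the cells that hold markers of other types. Plasmacytoid dendritic cell markers summed to 122 CPM in the neighbours and 42.0 in follicular cells, and T cell markers to 83.7 and 53.2. NK cell markers went the other way, at 117 and 133 CPM, as did erythroid markers, at 888 and 1174. The part of such cells in these folds was not tested. Mki67 was 3.78-fold lower (3.10 to 4.62) in summed UMIs, and 6 of 12 measured cell cycle genes were past 1.5-fold lower. A Mki67 UMI was in 41 of the 2308 follicular cells (1.78%) and 16 of the 672 neighbours (2.38%), so its summed levels rest on few cells. Thinned to 1000 UMIs, the shares were 0.434% (0.208 to 0.796) and 1.20% (0.519 to 2.35), with overlapping intervals. At the border of the rule the change was a step for some genes and a slope for others. Zfp318 was at 300.4 CPM in cells with 0 Fcer2a UMIs and at 389.5, 373 and 379 at 1, 2 to 3 and 4 or more, and Plac8 was at 648 and then 398, 383 and 332. Cr2 was at 245, 272, 326 and 324 CPM.

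For other groups of B cells the summed levels did not settle a name. The 131 B cells with a Cd93 UMI and no Jchain had Lyz2 at 1921 CPM, against 11.9 in follicular cells, and also Fn1, C1qa and C1qb among the 8 largest ratios, which are genes of macrophages and monocytes. A Lyz2 UMI was found in 58 of all 1421 other B cells, so this summed level can rest on few of the 131 cells. In the comparison with the cells with Cd93, 619 of 8652 genes (7.15%) were higher and 1211 (14.0%) lower in follicular cells. The 135 B cells with at least 2 marginal zone genes and no Fcer2a UMI were led by Cxcl9, Apol7c and Tbc1d9, and 767 of 8454 genes (9.07%) were higher and 1056 (12.5%) lower in follicular cells. The marginal zone genes that chose the 135 cells were left out of that ranking and of these counts. Neither group was given the name of a B cell subset, and the part of other cell types in these counts was not tested.

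IgM and IgD come from the same transcript, and the follicular cells varied widely in their balance. Ighd made up a median of 27.8% of the Ighm and Ighd UMIs of a cell, from 7.69% at the 5th to 53.3% at the 95th percentile. In the other B cells the median was 19.2%. Zfp318, the factor that lets transcription run past the IgM exons into the IgD exons, stood at 379.7 CPM in follicular and 237 in other B cells, and was 1.28-fold higher (1.20 to 1.36) in the strict comparison. Of the 7 measured genes of transcript processing, Zfp318 was past 1.5-fold higher, and Ell2 and Eaf2, elongation factors of antibody-secreting cells, lower. Ell2 was at 0.17 in the strict comparison.

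Zfp318 also differed with the IgD share among the follicular cells themselves. Split by IgD share into 4 groups of 569 to 588 cells, with median depths of 3638 to 3729 UMIs, the cells had Zfp318 at 294 CPM (273 to 317) in the lowest group, then 404, 378 and 451 (424 to 480.0) in the highest. Fcmr went from 899 through 1059 and 1082 to 1172 CPM. Ly6d, a surface protein of the B lineage, went from 2788 through 2269.9 and 1958 to 1976 CPM. Vpreb3, a chaperone of early B cells, went from 450.4 through 333 and 332 to 310.4, and Plac8 from 481 through 345 and 375 to 271 CPM. Ms4a1 went from 1535 through 1277 and 1234 to 1179 CPM. The groups were cut by the Ighd share of the Ighm and Ighd UMIs, so the Ighm and Ighd levels in them follow from the cut. The other genes did not enter the cut, and whether they go with the Ighm or the Ighd level was not tested.

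**Figure D4:**
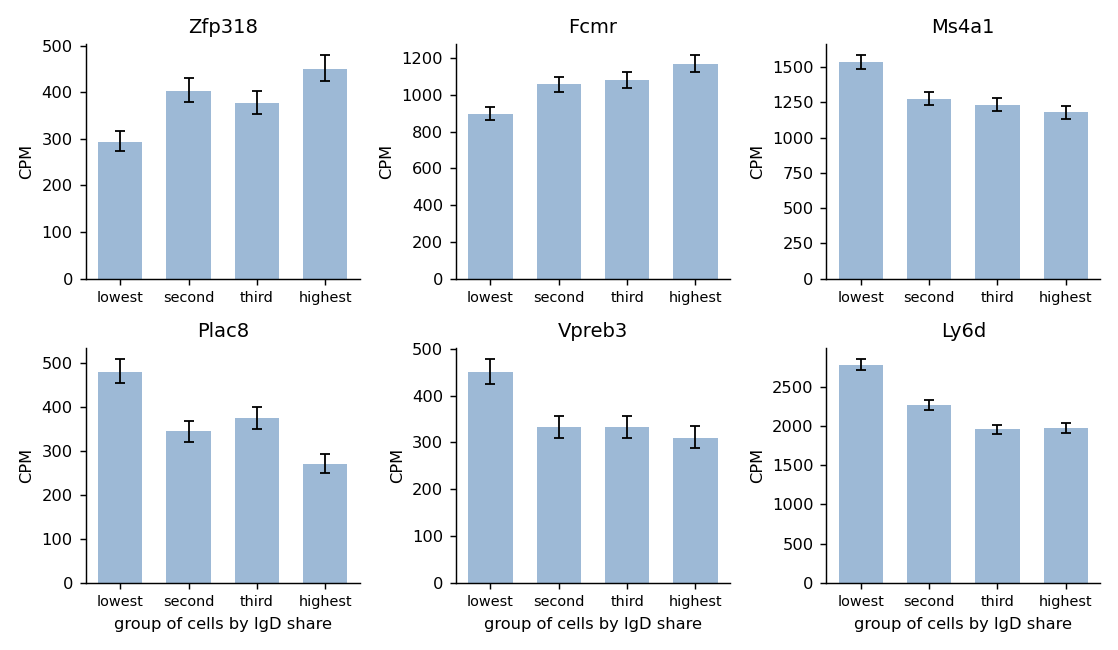
Summed level in CPM of 6 genes in the follicular B cells, in 4 groups of cells from the lowest to the highest IgD share of Ighm and Ighd UMIs, with exact Poisson 95% intervals that cover counting error. Zfp318 and Fcmr are lowest in the lowest group, and Ms4a1, Plac8, Vpreb3 and Ly6d are highest there, with Zfp318 at 294 and 451 CPM and Plac8 at 481 and 271 CPM at the ends.

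Most follicular cells used the kappa light chain. Of 2290 cells with at least 10 light chain UMIs, 2110 or 92.1% (91.0 to 93.2) had at least 50% of them from Igkc, and 112 or 4.89% (4.04 to 5.86) had under 20%. A further 68 cells or 2.97% lay between. The share under 20% kappa was 6.63% (4.84 to 8.82) in the Ighd-positive cells without Fcer2a UMIs and 13.5% (8.06 to 20.7) in the cells with Cd93. Cells under 20% kappa had medians of 27 Iglc1 and 11.5 Iglc2 UMIs.

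The kappa cells also held lambda transcripts. Among the 2110 cells, Iglc2 had a UMI in 97.1% and Iglc3 in 95.3%, with medians of 5 and 4 UMIs, and Iglc1 in 50.7%. In the T cells, which make no light chain, the shares were 12.9% for Iglc2, 6.72% for Iglc3 and 9.83% for Iglc1, all below those of the kappa cells. Iglc2 and Iglc3 are near-identical copies, and their split by the counting is uncertain. The origin of these UMIs was not tested.

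**Figure D5:**
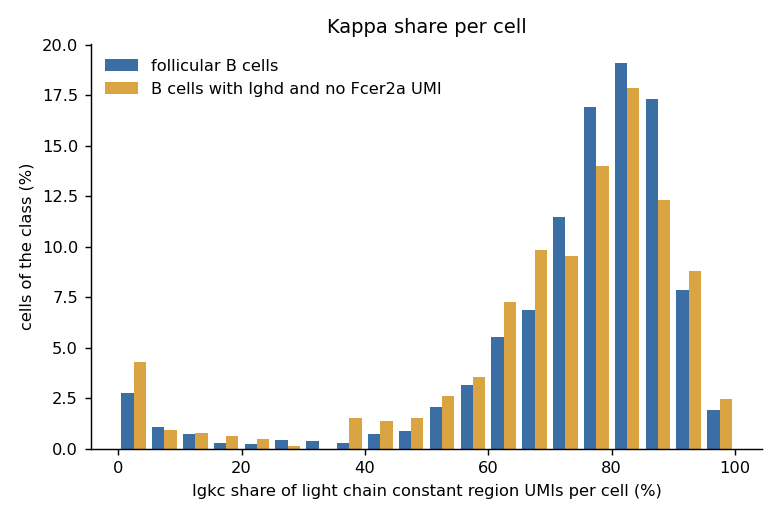
Share of cells (percent of the class) by the Igkc share of their light chain constant region UMIs, in bins of 5 percentage points, for follicular B cells (blue) and for B cells with Ighd and no Fcer2a UMI (yellow), with at least 10 light chain UMIs per cell. Both classes have a broad peak near 80% and a small separate group under 20%, which holds 4.89% of the follicular cells.

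The repertoire of the follicular cells was broad. A heavy chain V gene UMI was found in 901 cells or 39.0%, and the 835 of them with a single V gene used 108 of the 183 listed genes. The most frequent, Ighv1-26, was in 40 cells or 4.79%. For kappa V genes, 902 cells or 39.1% had a UMI, and the most frequent, Igkv10-96, was in 56 of the 759 cells with a single gene, or 7.38%. V genes share sequence within families, so single assignments are uncertain. For class-switched heavy chains, T cells served as the class that should lack them. Without thinning an Igha UMI was in 11.7% of follicular and 11.7% of the deeper T cells, and an Ighg2c UMI in 2.82% and 4.69%. Thinned to 1000 UMIs, Igha was seen in 2.73% (2.11 to 3.48) of follicular and 2.88% (2.24 to 3.63) of T cells, and thinned to 2000 UMIs in 6.84% (5.84 to 7.96) and 4.46% (3.66 to 5.38).

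Beyond immunoglobulin genes, few genes varied among the follicular cells by much more than counting. Of 7704 genes with at least 100 UMIs in the 2308 cells, the median variance was 1.09 times that of Poisson counting at each cell's depth, and 159 genes were over 2 and 30 over 5. Haemoglobin genes led because 7 cells held 88.5% of the 10940 haemoglobin UMIs. Gzma at 24.7 and Ccl5 at 22.1, genes of cytotoxic lymphocytes, Siglech at 8.97 and Lyz2 at 6.90 were also led by few cells, with an Lyz2 UMI in 2.77% of follicular and 3.40% of T cells. Mki67 was at 8.36 with UMIs in 1.78% of the cells.

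Early response genes also varied by more than counting, below Rn18s-rs5 (27.5), Malat1 (14.3) and mt-Rnr2 (9.73), which nearly every cell held. Egr1 had 7.04 times the Poisson variance, Fos 6.07, Jun 5.76 and Junb 4.80, and so did the heat shock genes Hspa1a (6.24) and Hspa1b (6.01). After thinning, 251 of 2306 cells had an Egr1 UMI. Among them Fosb was seen in 58.6% (52.2 to 64.7) and in 19.7% (18.0 to 21.5) of the others, and Fos in 51.8% and 21.5%. Egr3 was seen in 20.3% against 6.57%, Junb in 60.6% against 32.1% and Cd69, an early activation antigen, in 52.6% against 38.4%. Cd83 in 11.2% and 11.8%, Myc in 4.78% and 4.48% and Hspa1a in 4.78% and 6.57% did not share the pattern beyond their intervals. T cells carried Fos in 23.1% and follicular cells in 24.8% when thinned, and the part of tissue grinding in them was not tested.

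Activation genes as a list were slightly higher in the follicular cells. Of 16, Cd83 was the only gene past 1.5-fold, at 147 against 97.6 CPM, none was lower, and the median of 0.23 was 0.26 in the strict comparison. This list thus kept its size where most others shrank. Fos was at 0.04 over all other B cells and 1.36-fold higher (1.28 to 1.45) in the strict comparison.

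The same rule found 24 cells in IR and 9 in IR_HSO, which were 0.187% (0.120 to 0.278) and 0.0850% (0.0389 to 0.161) of filtered barcodes, against 25.4% in control. B cells as a whole were 1.84% and 1.59% of barcodes there, against 41.1%, and 183 of 212 and 144 of 159 of the other B cells held Jchain. Cells this few describe their library only. Bax, a p53 target that promotes cell death, stood at 402 CPM (263 to 589) in IR and 501 (267 to 857) in IR_HSO, against 110.4 in control. Bcl2, which opposes cell death, stood at 387 CPM (250 to 571) in IR and 231 (84.8 to 503) in IR_HSO, against 157 in control. Cdkn1a, a p53 target that stops the cell cycle, had 5 UMIs in the IR cells, 1 in the IR_HSO cells and 18 in all 2308 control cells. Cr2 stood at 696 CPM (508 to 931) and 809 (501 to 1237) against 310 in control. Fcmr stood at 974 CPM (749 to 1247) in IR and 539 (295 to 905) in IR_HSO, against 1049 in control. The IR_HSO level rests on 14 UMIs in 9 cells, and the intervals of IR and IR_HSO overlap. H2-Aa stood at 4408 CPM (3911 to 4951) and 5048 (4220 to 5990) against 4774. Ctrb1, a digestive enzyme of the pancreas, had a UMI in 20 of the 24 IR cells and 4 of the 9 IR_HSO cells, and in 0 of the control cells (exact interval up to 0.160%). It was not particular to these cells: the other B cells held it in 143 of 212 in IR, 83 of 159 in IR_HSO and 0 of 1421 in control.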

How the data were processed

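The authors deposited unnormalized UMI counts for each gene in each barcode. Per the file headers they come from Cell Ranger 7.0.1. GRCm39 is the build in the submitters' processing notes, and the annotation release is not given in the sources used here. Depth was 47298108 UMIs in control, 50836313 in IR and 45636807 in IR_HSO. Gene names came from the 56980 listed features, and counts of rows with the same symbol were added.

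The members and the gene lists were chosen with earlier results of these data known. UMIs were summed per class and scaled to CPM. Ratios used 1 CPM added and genes with at least 10 CPM in either class, and 1.5-fold was the size for a call. Ratios carry exact conditional 95% intervals, levels exact Poisson and shares exact Clopper-Pearson intervals. Cells were not thinned unless the sentence calls them so, and thinning was to 1000 UMIs with seed 7 where no other number is given. No doublet caller removed cells from the values of the report. A Scrublet-type score that would mark 658 barcodes of control, 79 of them follicular, was used as an alternative. Named genes were the 5 markers, the 12 highest and 12 lowest ratios at 20 CPM or more, up to 3 highest and 3 lowest genes of a list and any count of 5 or fewer. Some genes that these rules reach are not reported here. The genes named for variance, IgD share and the irradiated libraries, and Dtx1, Notch2, Zeb2, Mef2c, Pax5, Ebf1, Pou2f2, Vpreb3, Apoe and Bax, were named for what they do, with their values seen. The ratio code was tested on simulated counts. Python 3.11.15, numpy 2.4.6, scipy 1.17.1 and pandas 2.3.3 were used.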

Additional observations from a re-analysis of the deposited data

How the results depend on the processing

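No paired analysis was possible because each group has 1 library. The follicular share of B cells was 61.9%, and 40.4% with at least 2 UMIs of Fcer2a and Ighd, 63.7% without cells with markers of other types, and 68.4% with at most 1 Jchain UMI. The 119 higher genes became 34 with at least 2 UMIs of both genes, 27 with the mean of per-cell CPM, 55 with 5 CPM added, 537 with no filter on low levels, 37 at 50 CPM or more, 23 without cells with markers of other types and 195 with at most 1 Jchain UMI. The 512 lower genes became 327 with at least 2 UMIs, 226 with per-cell means, 1966 with no filter, 113 at 50 CPM, 208 without cells with markers of other types and 305 with cells thinned to 2000 UMIs. The last 2 settings of cells, on markers of other types and on Jchain, were chosen after seeing the data. Leaving out the highest doublet scores gave 124 higher and 486 lower.

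Of 134 named gene ratios under all settings, 1188 of 1608 values stayed inside their interval, 409 moved and 11 changed sign, and of 240 list medians 177 stayed, 62 moved and 1 changed sign. Of 102 shares of follicular cells with a UMI at another thinning, 7 stayed and 95 moved. The median that changed sign was the germinal centre median, 0.60 at 50 CPM or more, where fewer genes were left. Ell2 became 0.10 when thinned, 0.29 against other B cells without Jchain and Cd93, and 0.17 without cells with markers of other types. Under the last 2 of these Mzb1 became 0.27 and 0.022, and S100a9 0.29 and 0.12. Without cells with markers of other types Isg20 became 0.18, Prdm1 0.12, Selplg 0.028 and Slamf7 0.14. Prdm1 and S100a9 are themselves among those markers. The cause was not tested.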

Other observations

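At the Ighd edge of the rule stood 75 B cells with Fcer2a, without Cd93 and Jchain, and with no Ighd UMI. Set beside the follicular cells, genes went both ways in them. Zfp318 was at 176 CPM against 379.7, Fcmr at 598 against 1049 and Bcl2, the survival factor, at 66.8 against 157. Cd24a was at 455 CPM in them and 253 in the follicular cells, Ms4a1 at 1560 and 1311 and Il4i1 at 137 and 128, while Fcer2a itself was at 619 and 701. The follicular cells with exactly 1 Ighd UMI lay between, with Zfp318 at 240.2, Fcmr at 818 and Cd24a at 403 CPM. The cells without an Ighd UMI had a median of 3458 UMIs, against 3673.

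Genes of the marginal zone list differed in how they went with the Fcer2a count, and those here were picked with their values seen. Cd9 stood at 14.5 CPM in Ighd-positive cells with 0 Fcer2a UMIs and at 13.5, 9.32 and 4.34 at 1, 2 to 3 and 4 or more, and Dtx1 at 65.7, 64.2, 61.3 and 44.1 CPM. Cr2 went the other way, at 245, 272, 326 and 324 CPM, and Cd1d1 stood at 26.8, 16.9, 19.7 and 19.0. The Cd9 values rest on 38, 36, 35 and 13 UMIs. The median depths of these cells were 3500.5, 3529, 3648 and 3932 UMIs.

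Counted in 4 ways (summed UMIs, the strict comparison, the mean of per-cell CPM, and cells thinned to 2000 UMIs), 9 genes were at least 1.5-fold higher than in other B cells each time and 90 at least 1.5-fold lower. The 9 included Rapgef4, Exoc6b, Peg13, Carf and Dclk2, named with their values seen, and 4 gene models without a name. Among the 90 were Ube2c, Cenpf, Mki67, Pclaf, Nusap1, Top2a, Myb, Bhlhe41, Id2, Eaf2 and Slpi.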
